A study of Mus musculus with 12 samples.

Results

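The serpins (serine protease inhibitors) are a large gene family, and its expression was measured in subcutaneous allograft tumors of the mouse lung cancer cell line mTC11 (mTc11 in the labels). Members were taken by name alone, as every gene in the deposited table whose symbol starts with Serpin, a clade letter from a to i and a number. That gave 33 genes of the 15687 listed. The mouse annotation (GENCODE vM21, build GRCm38) holds 68 serpin genes with such symbols. The family was chosen because it holds Serpinb7, which had the largest drop among well expressed genes whose groups did not overlap. The difference of Serpinb7 is therefore given as a description and without a test.

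The study compared 6 tumors of the CTL group, from cells that carried a scrambled short hairpin RNA (shRNA), with 6 tumors of the Filip1l-knockdown group, from cells that carried an shRNA against Filip1l. Both cell populations were derived from mTC11 by lentiviral transduction and puromycin selection and were injected as mixed clones under the skin of 8-week-old male C57BL6/J mice, the strain whose immune system accepts these cells. All tumors were collected on day 24. The methods describe constructs against 2 Filip1l sequences and do not say which one the sequenced tumors carried. Because each group descended from its own selected population, an effect of the knockdown and a difference between the populations cannot be told apart. The tumors are bulk tissue, so fewer cells of a type and less RNA per cell cannot be told apart either. The question was which genes differ when Filip1l, a gene lost in lung adenocarcinoma, is reduced during tumor growth.

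Serpins share one fold with an exposed loop that acts as bait. A protease that cuts the loop is flipped to the other end of the inhibitor and trapped there, so each inhibitory serpin is used once. Extracellular members control clotting, fibrinolysis, complement and neutrophil proteases, and the clade b members mostly stay inside cells, where they protect against the cell's own or incoming proteases. A few members inhibit nothing: Serpinh1 is a collagen chaperone, Serpina6 and Serpina7 carry hormones, and Serpinb5 and Serpinf1 are known for other activities. Many mouse serpins sit side by side in clusters that arose by gene duplication.

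The listed members were 13 genes of clade a, 10 of clade b and 10 of clades c to i. By position, 5 members lay in a cluster of clade b genes on chromosome 1, 5 in the clade b cluster on chromosome 13, 12 in the clade a cluster on chromosome 12 and 2 beside each other on chromosome 11. The other 9 stood alone. The annotation holds 12, 16, 28 and 2 serpin genes in these clusters, so the listed share was lowest in the clade b cluster on chromosome 13 (5 of 16). Of the 33 members, 32 were annotated as protein coding, and Serpina3h was annotated as a transcribed pseudogene.

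Values were normalized counts, which are read counts per gene divided by the size factor of the tumor. They serve to compare tumors gene by gene and take no account of gene length, except where a level per kb is given. Values after ± are the SD over the 6 tumors of a group (n = 6), and SE is the standard error of a log2 fold change. A gene was called when the limma adjusted p was under 0.05 over all listed genes and the absolute log2 fold change (Filip1l-knockdown minus CTL, of the normalized count plus 1) was over 1. Of the 32 members other than Serpinb7, which is left out of the counts here because its values chose the family, 4 were called, 1 higher (Serpinb1a) and 3 lower (Serpinb11, Serpini1 and Serpinb9b) in Filip1l-knockdown tumors. Among all listed genes 10.2% were called, 6.2% higher and 3.97% lower. The adjusted p alone was under 0.05 for 13 of the 32, 6 higher and 7 lower, against 41.9% of all genes, 21.1% higher and 20.7% lower. The groups did not overlap for 6 of the 32, against 21.5% of all genes. The median log2 fold change was 0.27 over the 32 serpins and 0.01 over all genes.

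**Figure D1:**
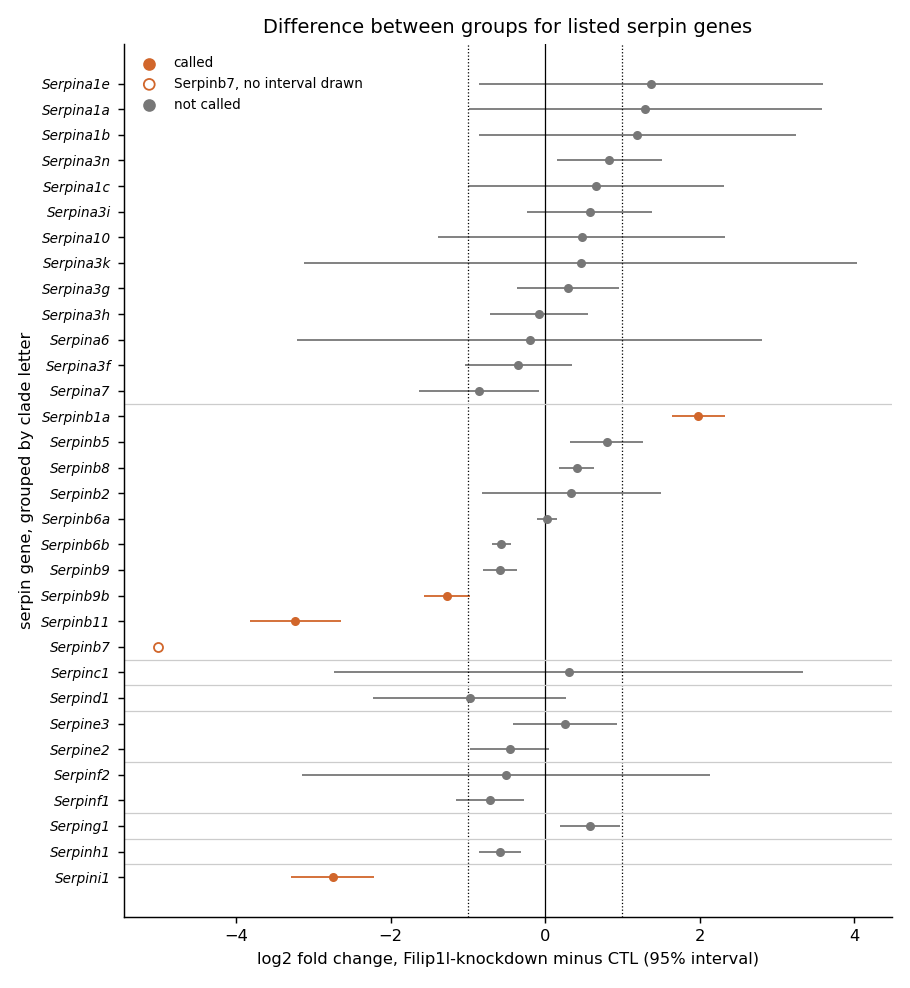
Log2 fold change (Filip1l-knockdown minus CTL, x axis) of 32 of the 33 listed serpin genes, grouped by clade letter (y axis), with 95% intervals from limma; dotted lines mark a log2 fold change of 1 in either direction. The 4 called genes (filled orange) belong to clades b and i, Serpinb7 (open circle) is drawn without an interval at -5.00, and the widest intervals belong to low genes of clades a, c and f.

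The 5 listed clade b genes on chromosome 1 lay between positions 106861173 and 107610484 (GRCm38), all on the + strand, in the order Serpinb5, Serpinb11, Serpinb7, Serpinb2 and Serpinb8. Their promoters are shown because these neighbours did not move together, and the promoter of Serpini1 is shown as that of the only member outside clade b that was called. Each RefSeq promoter (GRCm38.p6) runs from 250 bases before to 50 bases after the annotated start site and is read 5′ to 3′ on the gene's strand. Letters are in lower case, with capitals for matches, on either strand, to a TATA box (TATAAA), the binding sequence of the AP-1 factors (TGANTCA), a GC box (GGGCGG) or a CCAAT box (CCAAT). The windows are chr1:106860925-106861224 for Serpinb5, chr1:107362064-107362363 for Serpinb11, chr1:107422439-107422738 for Serpinb7, chr1:107511173-107511472 for Serpinb2, chr1:107589756-107590055 for Serpinb8 and chr3:75557243-75557542 for Serpini1, all on the + strand.
Serpinb5: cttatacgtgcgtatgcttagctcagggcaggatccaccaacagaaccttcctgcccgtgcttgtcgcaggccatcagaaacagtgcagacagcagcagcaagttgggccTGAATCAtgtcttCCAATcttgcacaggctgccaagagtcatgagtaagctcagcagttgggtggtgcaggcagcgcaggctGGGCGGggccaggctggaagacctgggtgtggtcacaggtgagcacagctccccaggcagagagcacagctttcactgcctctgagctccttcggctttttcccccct
Serpinb11: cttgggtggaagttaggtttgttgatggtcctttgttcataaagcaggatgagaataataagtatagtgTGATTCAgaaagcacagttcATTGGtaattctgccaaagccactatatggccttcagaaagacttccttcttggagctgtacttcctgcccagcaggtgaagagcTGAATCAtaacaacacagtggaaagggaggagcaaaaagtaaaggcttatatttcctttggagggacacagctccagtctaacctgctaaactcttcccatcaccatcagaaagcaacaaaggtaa
Serpinb7: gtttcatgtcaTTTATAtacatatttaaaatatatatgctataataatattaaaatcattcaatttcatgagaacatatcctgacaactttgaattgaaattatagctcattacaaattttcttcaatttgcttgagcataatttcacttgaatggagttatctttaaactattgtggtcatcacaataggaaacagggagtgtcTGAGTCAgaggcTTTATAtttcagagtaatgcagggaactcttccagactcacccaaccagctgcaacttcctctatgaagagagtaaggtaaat
Serpinb2: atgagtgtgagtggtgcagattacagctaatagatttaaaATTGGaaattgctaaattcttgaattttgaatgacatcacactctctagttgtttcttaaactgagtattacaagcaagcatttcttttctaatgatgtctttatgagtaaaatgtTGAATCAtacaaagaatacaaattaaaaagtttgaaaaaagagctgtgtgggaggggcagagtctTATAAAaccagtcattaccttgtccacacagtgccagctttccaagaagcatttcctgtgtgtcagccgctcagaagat
Serpinb8: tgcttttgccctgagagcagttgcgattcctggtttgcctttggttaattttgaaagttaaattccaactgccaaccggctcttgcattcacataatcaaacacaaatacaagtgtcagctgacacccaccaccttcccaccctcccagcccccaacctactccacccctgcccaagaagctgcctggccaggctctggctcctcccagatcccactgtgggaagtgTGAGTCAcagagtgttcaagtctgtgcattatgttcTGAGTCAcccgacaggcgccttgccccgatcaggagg
Serpini1: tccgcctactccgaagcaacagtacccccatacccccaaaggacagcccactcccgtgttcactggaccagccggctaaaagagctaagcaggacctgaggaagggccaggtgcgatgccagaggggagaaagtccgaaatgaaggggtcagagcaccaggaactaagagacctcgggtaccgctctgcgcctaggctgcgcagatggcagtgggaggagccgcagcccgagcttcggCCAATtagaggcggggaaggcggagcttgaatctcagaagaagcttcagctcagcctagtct

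All 5 promoters of the chromosome 1 cluster held at least 1 AP-1 match, a sequence found in 7.81% of the 32851 promoters in the table. The first base of the match lay 140 bases before the start site in Serpinb5, 181 and 76 bases before it in Serpinb11, 45 before it in Serpinb7 and 94 before it in Serpinb2. In Serpinb8 the matches lay 23 bases before and 13 bases after the start. The match was thus present in the genes that were lower and in the genes that were not. TATA box matches lay 239 and 33 bases before the start of Serpinb7, both on the strand opposite to the gene (read as TTTATA). In Serpinb2 the match lay 29 bases before the start on the gene's own strand. No TATA box match was found in the windows of Serpinb5, Serpinb11 and Serpinb8, while 13.6% of all promoters held one. The promoter of Serpini1 held a CCAAT box 12 bases before the start, as 37.4% of all promoters held one somewhere in the window, and no AP-1 match. Among the other 21 members with a promoter in the table, AP-1 matches were found in 3, the neighbouring paralogs Serpina1a, Serpina1b and Serpina1c. For Serpinb7 the RefSeq start site lies 23.0 kb inside the outermost start of the GENCODE gene, so other start sites of Serpinb7 were not examined. Serpinb2 has another RefSeq start site, whose window is not printed. From that site the AP-1 match lay 181 bases and the TATA box match 116 bases before the start. The files hold no measurement of factor binding, and the matches are descriptions of the sequence.

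Serpinb7 (megsin, first known from kidney mesangial cells and also made in the epidermis) had a lowest, median and highest normalized count of 133, 212 and 325 in CTL tumors and 2.62, 6.66 and 7.83 in Filip1l-knockdown tumors. Every knockdown tumor was far below every CTL tumor. The means were 219 ± 65.6 and 5.90 ± 2.02, a ratio of 37.1 and a log2 fold change of -5.00. In the knockdown tumors these values rest on 3 to 8 reads per tumor and 36 reads in all, against 140 to 334 reads per CTL tumor, and 1 knockdown tumor was at the floor of 3 reads. The low level in the knockdown group is therefore known only to within counting error.

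Serpinb11, the neighbour on the 5′ side and an inhibitor expressed in epithelia, fell in the same tumors. Its lowest, median and highest values were 129.7, 292 and 435 in CTL tumors and 19.8, 25.3 and 37.2 in Filip1l-knockdown tumors, and the groups were far apart. The means were 274 ± 115 and 26.4 ± 6.36, with a log2 fold change of -3.23 (SE 0.27, limma adjusted p = 9.04e-07). Within tumors, the ratio of Serpinb7 to Serpinb11 had a median of 0.868 in the CTL group and 0.235 in the knockdown group, with ranges of 0.534 to 1.31 and 0.0909 to 0.318. Both genes were lower, by unequal factors.

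Serpinb5 (maspin, a serpin without inhibitory activity that is made by epithelial cells) differed in the other direction. It ran from 121 to 341 in CTL tumors and from 320.3 to 504 in knockdown tumors, so that the lowest knockdown tumor was below the highest CTL tumor. The means were 254 ± 82.3 and 423 ± 71.0, with a log2 fold change of 0.80 (SE 0.22, limma adjusted p = 0.00983), and the exact permutation test over tumors gave p = 0.00433. The difference between the means was larger than the SD of either group, but the ranges overlapped and the fold was under that used for calls.

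Serpinb8, an intracellular inhibitor known to act on furin, also stood higher in the knockdown group, at 295 ± 28.0 against 224 ± 30.7. It had a log2 fold change of 0.41 (SE 0.11, limma adjusted p = 0.00746), and its ranges, 176 to 259 in CTL and 254 to 334 in knockdown tumors, touched only at their ends. Serpinb2 (plasminogen activator inhibitor 2) had medians of 39.4 and 40.0 in the CTL and knockdown groups. One knockdown tumor reached 269.8, while the other 5 lay between 20.8 and 111, with a log2 fold change of 0.34 (SE 0.54, limma adjusted p = 0.655) for the whole group. Serpinb2 overlaps Serpinb10 on the same strand over 6476 bases, and reads in the overlap may not have been counted for either gene.

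Relative to Serpinb8 in the same tumor, which removes any scaling between tumors, Serpinb7 had a ratio of 0.576 to 1.85 in CTL tumors and 0.00833 to 0.0278 in knockdown tumors. The ratio of Serpinb11 to Serpinb8 ran from 0.564 to 2.47 and from 0.0683 to 0.123. Thus the 2 middle genes were low in every knockdown tumor while their neighbours on both sides were not.

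The nearest listed genes outside the cluster on the 5′ side were Vps4b, Kdsr and Bcl2, at 64.4 to 147 kb. Vps4b and Kdsr had log2 fold changes of 0.26 and -0.57, with limma adjusted p of 0.00153 and 3.75e-06. Bcl2, the survival factor, had 1398 ± 108 normalized counts in CTL and 704 ± 98.2 in knockdown tumors (limma adjusted p = 1.81e-06) and just missed the fold used for calls. On the 3′ side the nearest listed gene, Dsel, was 4248 kb away (log2 fold change -0.56, limma adjusted p = 6.99e-05), and beyond it Tsn and Nifk had 0.01 and -0.01. The other 7 annotated serpins of this cluster, Serpinb3a, Serpinb3b, Serpinb3c, Serpinb3d, Serpinb10, Serpinb12 and Serpinb13, were not among the listed genes.

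**Figure D2:**
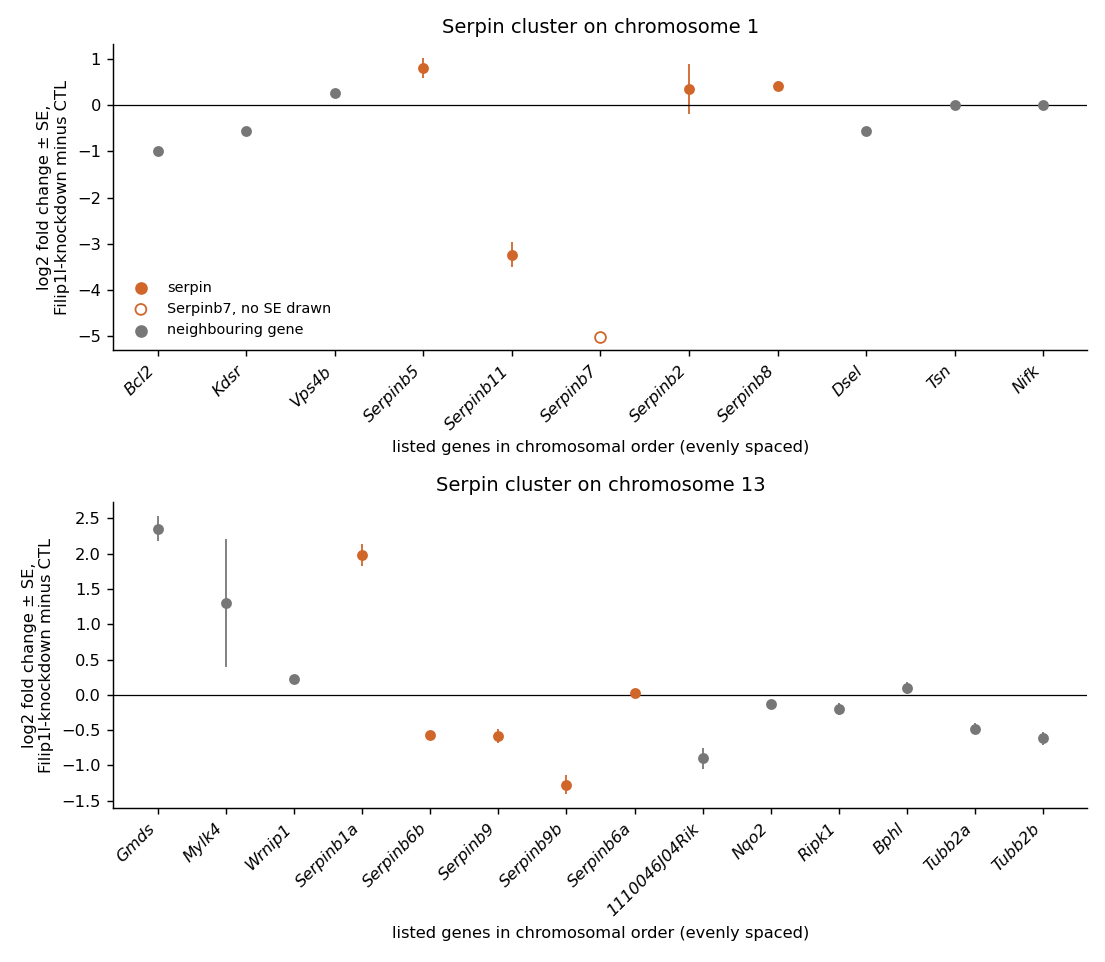
Log2 fold change with its standard error (y axis) for listed genes in chromosomal order (x axis, evenly spaced), serpins in orange and neighbouring genes in grey, for the clade b clusters on chromosomes 1 and 13. On chromosome 1 Serpinb11 and Serpinb7 lie at -3.23 and -5.00 between serpins above 0, and on chromosome 13 Serpinb1a lies at 1.98 while Serpinb6b, Serpinb9 and Serpinb9b lie below 0.

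Markers of squamous epithelium, where several of the genes in the chromosome 1 cluster are known to be made, did not move as a list. Of 8 listed keratinocyte markers 0 were called higher and 1 lower (Lor, log2 fold change -1.94, limma adjusted p = 1.95e-04), and their summed level was 1696 to 5127 in the CTL group and 2591 to 5149 in the knockdown group. None of the 8 was at 0, and Krt1 and Krt15 were not among the listed genes. Markers of intestinal epithelium were higher, with 7 of 7 called and sums of 15403 to 21417 in CTL and 50707 to 112866 in knockdown tumors. Of all listed genes 6.2% were called higher and 3.97% lower. Whether a change in epithelial type has a part in the values of these serpins was not tested.

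In the clade b cluster on chromosome 13, between positions 32842092 and 34002794 (GRCm38), Serpinb1a rose and 3 neighbours were lower. Serpinb1a is the mouse inhibitor of neutrophil elastase, proteinase 3 and cathepsin G. Its lowest, median and highest normalized counts were 1363, 1829.5 and 2291 in CTL tumors and 4928, 7251 and 9454 in Filip1l-knockdown tumors, so every knockdown tumor was above every CTL tumor. The means were 1790.1 ± 333 and 7144 ± 1709.6, a ratio of 3.99, with a log2 fold change of 1.98 (SE 0.16, limma adjusted p = 5.60e-07). Of its transcript sequence, cut into 50-base windows, 3.42% is shared with other genes.

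Neutrophil markers were higher beside it. Of the 8 listed markers 6 were called higher (S100a8, S100a9, Csf3r, Cxcr2, Retnlg and Mmp8), against 6.2% of all listed genes. The median log2 fold change of the 8 was 1.45. Among the others, Ltf had -0.09 and Ngp, listed at 0 in at least 1 knockdown tumor, had 0.89, and neither passed the test. For 5 of the 8 single markers the groups did not overlap, as for Serpinb1a, against 21.5% of all listed genes. The summed level of the 8 was 584 to 1757 in the CTL group and 1379 to 2043 in the knockdown group. The part of neutrophils in the result was not tested. Of the neutrophil proteases named above as targets of Serpinb1a, only Prtn3 was among the listed genes. Prtn3 had 14.6 normalized counts in CTL and 15.0 in knockdown tumors on average (limma adjusted p = 0.598).

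Serpinb9, the inhibitor of granzyme B that protects lymphocytes and tumor cells from cytotoxic granules, was one of the most abundant serpins. Its lowest, median and highest values were 6863, 7721 and 8258 in CTL tumors and 4125, 5237 and 6856 in knockdown tumors, and the highest knockdown tumor was just below the lowest CTL tumor. It had means of 7691 ± 494 and 5185 ± 966 and a log2 fold change of -0.59 (SE 0.10, limma adjusted p = 3.74e-04). Serpinb9b, its near neighbour and paralog, fell further, from 144 ± 13.1 to 59.6 ± 10.7, with a log2 fold change of -1.27 (SE 0.14, limma adjusted p = 7.32e-06). No knockdown tumor (from 47.6 to 75.6) reached the CTL range (from 126 to 164).

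Serpinb6b, another intracellular inhibitor of the same block, lay between 5044 and 6000.4 in CTL and between 3349.8 and 3961 in knockdown tumors, with no overlap. Its means were 5529 ± 325 and 3737 ± 225, with a log2 fold change of -0.57 (SE 0.06, limma adjusted p = 2.83e-06). The ratio of Serpinb9 to Serpinb6b within tumors was alike in both groups, with medians of 1.39 and 1.36 and overlapping ranges (1.28 to 1.54 and 1.14 to 1.73). T and NK cell markers, the cells that carry granzymes, showed 0 of 9 called, against 10.2% of all listed genes. Their median log2 fold change was 0.09, with sums of 1076 to 3038 in CTL and 1166 to 2301 in knockdown tumors. Granzyme B itself (Gzmb) had 226 normalized counts in CTL and 191 in knockdown tumors on average (limma adjusted p = 0.556).

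Serpinb6a, an inhibitor of cathepsin G and trypsin-like proteases, sits at the far end of the cluster and is its highest member by total counts. It had 9400.1 ± 503 normalized counts in CTL and 9595 ± 743 in knockdown tumors, with a log2 fold change of 0.03 (SE 0.06, limma adjusted p = 0.752) and a 95% interval of -0.10 to 0.16. The ratio of Serpinb1a to Serpinb6a within tumors went from a range of 0.144 to 0.237 in CTL to 0.589 to 0.937 in knockdown tumors. Serpinb6a is overlapped on the opposite strand by Nqo2, 1110046J04Rik and Ripk1. The kit is not stated to keep the strand, so some reads of these genes could be mixed.

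The genes around the chromosome 13 cluster did not share one direction. On the side of Serpinb1a, Wrnip1 at 19.5 kb had a log2 fold change of 0.22 (limma adjusted p = 0.00969), Mylk4 at 58.1 kb had 1.30 (0.276) and Gmds at 503 kb had 2.35 (4.06e-07). Inside the cluster, 1110046J04Rik had -0.90 (limma adjusted p = 2.75e-04), Nqo2 -0.13 (0.0966) and Ripk1 -0.20 (0.0558). On the other side Bphl had 0.10 (limma adjusted p = 0.385), Tubb2a -0.48 (1.93e-04) and Tubb2b -0.61 (1.47e-04). Gmds, an enzyme of the pathway to GDP-fucose, was the only one of these neighbours to be called.

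**Figure D3:**
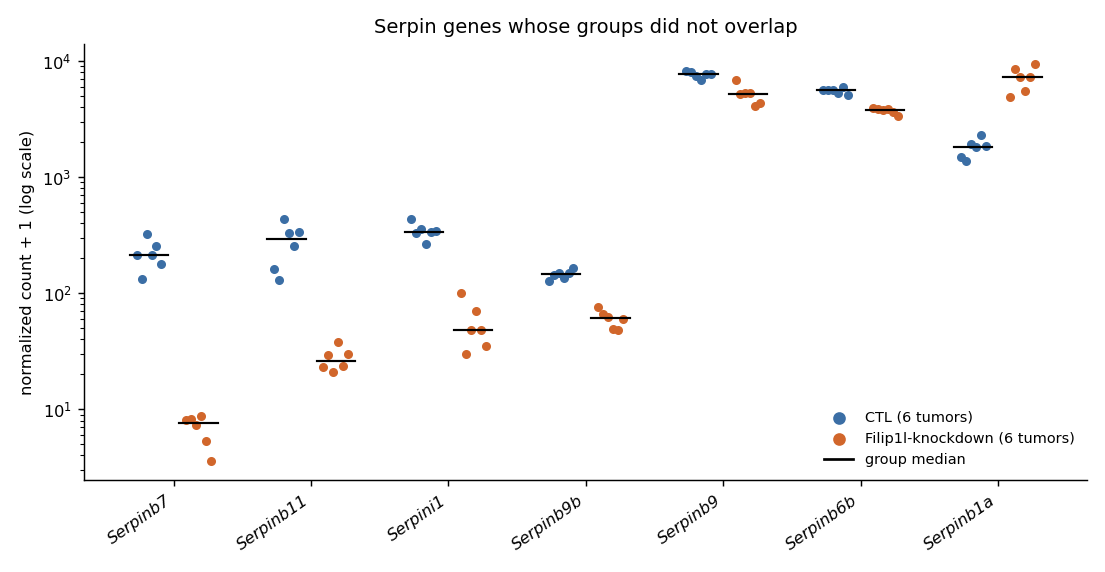
Normalized count plus 1 (y axis, log scale) of the 7 serpins whose groups did not overlap, with each point 1 tumor, CTL in blue and Filip1l-knockdown in orange (6 tumors each), and black bars at the group medians. Serpinb1a is the only one with the knockdown tumors on top, and Serpinb7 has the widest gap, from at least 133 in CTL tumors to at most 7.83 in knockdown tumors.

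Serpini1 (neuroserpin, the inhibitor of tissue plasminogen activator that is best known from neurons) was the only called member outside clade b. Its lowest, median and highest normalized counts were 265, 339 and 436 in CTL tumors and 29.2, 47.3 and 98.8 in Filip1l-knockdown tumors, with a wide gap between the groups. It fell from 344 ± 55.4 to 54.2 ± 25.8, a ratio of 6.35, with a log2 fold change of -2.75 (SE 0.25, limma adjusted p = 1.47e-06). Pdcd10, which starts on the opposite strand only 0.691 kb away, had a log2 fold change of -0.23 (limma adjusted p = 0.00665). The protease that Serpini1 inhibits, Plat, had 3596 ± 353 and 3516 ± 677 normalized counts (limma adjusted p = 0.762). The other clade i gene, Serpini2, was not among the listed genes.

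Farther from Serpini1 the listed genes differed in both directions. Golim4, at 232 kb, had a log2 fold change of -0.93 (limma adjusted p = 9.34e-07), and Bche, at 1849 kb, had 0.91 (1.05e-04). Sis, the intestinal sucrase, was 2589.7 kb away and went from 7.37 ± 3.60 to 348 ± 135 normalized counts (log2 fold change 5.39, limma adjusted p = 2.87e-08). Gm9762, a pseudogene at 3323 kb, and Rapgef2, at 3419 kb, had -0.12 (limma adjusted p = 0.599) and 0.30 (0.00188). The nearest listed gene on each side of Serpini1, Pdcd10 at 0.691 kb and Golim4 at 232 kb, was thus lower. The higher genes Bche, Sis and Rapgef2 lay at 1849 to 3419 kb. Whether the region has a part in the values of Serpini1 was not tested.

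Serpine2 (protease nexin 1, an inhibitor of thrombin and urokinase made by fibroblasts) ran from 1168 to 1619 in CTL tumors. In knockdown tumors it ran from 697 to 993 except for replicate 1, which had 2464. With all tumors it had a log2 fold change of -0.46 (SE 0.24, limma adjusted p = 0.142), and without replicate 1 the log2 fold change was -0.72 (limma adjusted p = 1.10e-04). That 1 tumor decides whether the gene differs between the groups. Serpine3, a little studied member, was low, at 20.7 ± 10.4 and 23.6 ± 6.50, with a log2 fold change of 0.25 (SE 0.32, limma adjusted p = 0.556), and lies on chromosome 14, whose genes had a median shift of 0.39.

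Serpinf1 (pigment epithelium derived factor, a secreted serpin that limits vessel growth) and Serpinf2 (the plasmin inhibitor alpha-2-antiplasmin) lie beside each other on chromosome 11. Serpinf1 had 2254, 2915 and 3264 as its lowest, median and highest values in CTL tumors and 1166, 1596 and 3209.9 in knockdown tumors. The highest knockdown tumor was again replicate 1, and the other 5 were below every CTL tumor. With means of 2828 ± 419 and 1818 ± 761, it had a log2 fold change of -0.71 (SE 0.21, limma adjusted p = 0.0122), which became -0.90 (limma adjusted p = 2.08e-04) without replicate 1. Serpinf2 was low, from 2.00 to 95.6 in CTL and from 0 to 73.6 in knockdown tumors, with a log2 fold change of -0.50 (SE 1.23, limma adjusted p = 0.779).

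The genes nearest to this pair on the left, Smyd4, Rpa1 and Rtn4rl1, had log2 fold changes of -0.43, -0.01 and -0.53, and those on the right, Wdr81, Mir22hg and Tlcd2, had -0.20, 0.70 and -1.91. Tlcd2 was called (limma adjusted p = 4.86e-06). Smyd4, Rtn4rl1 and Wdr81 also passed the test in the direction of Serpinf1 (limma adjusted p of 0.00324, 0.0181 and 0.0377), and Mir22hg passed it in the other (8.80e-04).

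Serpinh1 (heat shock protein 47), the chaperone of procollagen in the endoplasmic reticulum, was the most abundant serpin. Its lowest, median and highest values were 9969, 13078 and 15009 in CTL tumors and 6474, 8804 and 10869 in knockdown tumors, with an overlap at the ends. The means were 12898 ± 1684 and 8681 ± 1707, with a log2 fold change of -0.58 (SE 0.13, limma adjusted p = 0.00209) and an exact permutation p of 0.00649. Of 20 collagen biosynthesis genes 0 were called higher and 1 lower, Col6a1, which fell from 18322 ± 3211 to 7026 ± 1862 (log2 fold change -1.40, limma adjusted p = 9.28e-06). Over all listed genes 6.2% were called higher and 3.97% lower. The adjusted p alone was under 0.05 for 8 of the 20, 6 lower and 2 higher, against 41.9% of all genes, 20.7% lower and 21.1% higher. The median log2 fold change of that list was -0.06, and its summed level was 264774 to 386703 in the CTL group and 173746 to 365382 in the knockdown group.

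Serpine2, Serpinf1 and Serpinh1 are genes of connective tissue cells, and fibroblast markers are given beside them. Of 9 markers 0 were called, against 10.2% of all listed genes, and 3 were lower by the adjusted p alone, against 20.7%. None was at 0, and their median log2 fold change was -0.52. The summed level was 161794 to 264679 in the CTL group and 75846 to 254952 in the knockdown group. Knockdown replicate 1 had the highest of the knockdown sums, and the other 5 had at most 159659. The tumor that was high for Serpine2 and Serpinf1 was thus also high for fibroblast markers, and the part of fibroblast content in these values was not tested.

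Serping1 (C1 inhibitor), which controls the complement proteases C1r and C1s and plasma kallikrein, had 2803, 3119 and 3686 as its lowest, median and highest values in CTL tumors and 3078, 5355 and 6386 in knockdown tumors. Of the 6 knockdown tumors, 4 were above every CTL tumor and 2 fell inside the CTL range. The means were 3169.5 ± 340.0 and 4939.7 ± 1524, with a log2 fold change of 0.58 (SE 0.18, limma adjusted p = 0.0180). With CTL replicate 5 and knockdown replicates 1 and 2 left out, the log2 fold change was 0.38 (limma adjusted p = 0.148), so the difference no longer passed. Its targets C1ra and C1s1 had log2 fold changes of 0.57 (limma adjusted p = 0.0256) and 0.92 (0.0106), both under the fold used for calls.

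Clade a has 29 annotated genes in the mouse, pseudogenes included, against 28 of clade b. It holds antitrypsin, antichymotrypsin and hormone carrier genes. None of its 13 listed members was called, against 10.2% of all listed genes, and 1 had a limma adjusted p under 0.05, against 41.9%. That member was Serpina3n, a secreted inhibitor known from acute inflammation, with lowest, median and highest values of 189, 425 and 519.8 in CTL and 378, 599 and 1299.9 in knockdown tumors. It had means of 394 ± 113 and 750.2 ± 397 and a log2 fold change of 0.83 (SE 0.32, limma adjusted p = 0.0473), and the groups overlapped. Its log2 fold change was as low as 0.63 when 1 tumor was left out, and without knockdown replicate 1 the limma adjusted p was 0.0904.

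Serpina3g, an inhibitor of cysteine cathepsins in lymphoid cells, was the most abundant clade a gene, at 1019.6 ± 414 and 1290.0 ± 526 (log2 fold change 0.29, limma adjusted p = 0.479). Serpina3f had 247 ± 64.3 and 213 ± 99.1 (log2 fold change -0.34, limma adjusted p = 0.427). Serpina3h and Serpina3i had at most 48.9 and 37.3 normalized counts in any tumor. Serpina7, the carrier of thyroxine, had 27.8 ± 7.61 and 16.8 ± 10.9, with a log2 fold change of -0.86 (SE 0.36, limma adjusted p = 0.0714). Without knockdown replicate 1 or 2 its log2 fold change was -1.06 (limma adjusted p = 0.0222) or -1.07 (0.0251), past the threshold for calls.

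The remaining clade a members, with Serpinc1 (antithrombin), Serpind1 (heparin cofactor 2) and Serpinf2, are proteins of blood plasma made mainly by the liver. Serpina1e, Serpina3k and Serpina6 were at or under the floor of 3 reads in 6 of the 12 tumors each, and Serpinf2 was in 5. Serpind1 was above the floor in every tumor, at 4.32 to 59.8 normalized counts. Of the 33 serpins, 8 (Serpina1a, Serpina1b, Serpina1c, Serpina3k, Serpina6, Serpina10, Serpinc1 and Serpind1) had their 3 highest values in the same 3 tumors, CTL replicate 5 and knockdown replicates 1 and 2. Those were also the 3 tumors with the highest sums of hepatocyte markers. Serpina3k was the clearest case, at 366 in CTL replicate 5, 352 and 164 in knockdown replicates 1 and 2, and between 0 and 7.86 in the other 9 tumors. Serpinc1 had 215, 186 and 137 in these 3 tumors and at most 83.9 elsewhere.

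Albumin (Alb), the main hepatocyte product, had 5043, 3646 and 5010 normalized counts in the same 3 tumors and between 11.7 and 533 in the others. Of 9 hepatocyte markers 2 were called higher in the knockdown group (Apoa1 and Ttr), against 6.2% of all listed genes. The sums were 439 to 9088 in the CTL group and 1548 to 10043 in the knockdown group. High tumors were found in both groups, and with all 12 tumors the limma adjusted p of these serpins ran from 0.198 (Serpind1) to 0.927 (Serpina6). Serpind1 passed the threshold for calls when 1 tumor was left out, with a log2 fold change of -0.98 over all tumors and -1.38 (limma adjusted p = 0.0395) without knockdown replicate 1. Serpina3k, Serpina6, Serpinc1 and Serpinf2 changed sign when 1 tumor was left out, and none of them was called then. The part of liver RNA or liver-type expression in these values was not tested. Serpina1e was an exception, with 351 in knockdown replicate 1 and between 0 and 7.30 in the other 11 tumors, also in the other 2 with high albumin.

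**Figure D4:**
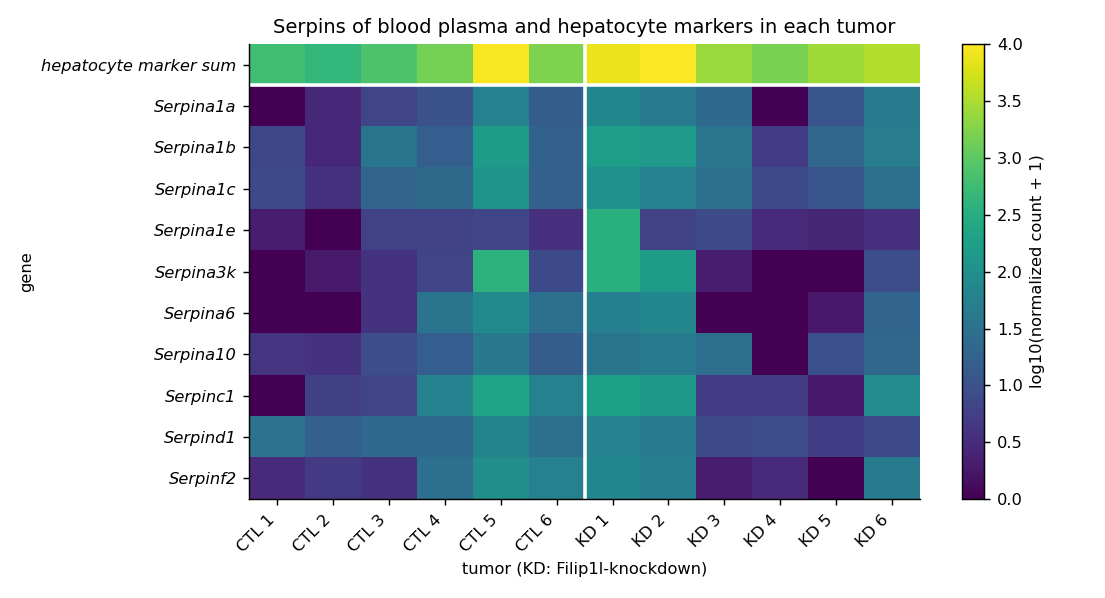
Log10 of the normalized count plus 1 (color) of 10 serpins of blood plasma and of the sum of 9 hepatocyte markers (rows) in each of the 12 tumors (columns; KD, Filip1l-knockdown). CTL 5, KD 1 and KD 2 are bright in most rows, and Serpina1e is bright in KD 1 alone.

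Several clade a genes cannot be separated well by sequence. Of the 33 members, 10 shared over 5% of their 50-base transcript windows with other genes, all in clade a, led by Serpina1c (74.2%) and Serpina1a (67.4%), and 15 shared none. Serpina1b as annotated also spans Serpina1d, and Serpina3k overlaps Serpina3m on the same strand. Reads that fit several copies equally were not counted by the authors, so these levels are uncertain. Serpinb7 and Serpinb11 shared no window, and Serpini1 and Serpinb9b shared 1.58% and 0.50%.

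The genes around the clade a cluster on chromosome 12 included interferon-induced Ifi27l2b and Ifi27l2a on the left. Both were called higher, with log2 fold changes of 2.00 and 1.15 (limma adjusted p of 6.83e-05 and 2.65e-04), and Ifi27 beside them had -0.18 (0.111). On the right Dicer1, Clmn and Gm28875 had -0.10, -0.70 and -1.85, of which Gm28875 was called (limma adjusted p = 3.45e-06). The 12 listed serpins between them had 0 calls and a median log2 fold change of 0.52.

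Levels between genes were compared per kb of exon. Among the members given here, the order in CTL tumors started with Serpinh1 at 5279.6 ± 689 normalized counts per kb, then Serpinb6b (2444 ± 144), Serpinb9 (2201 ± 141), Serpinb6a (1738 ± 93.0), Serping1 (1363 ± 146), Serpinf1 (1199 ± 178) and Serpinb1a (777 ± 145). The ranges over CTL tumors were apart between Serpinh1 and Serpinb6b, between Serpinb9 and Serpinb6a, between Serpinb6a and Serping1 and between Serpina3g and Serpina3n. All other neighbours in that order overlapped. In knockdown tumors it started with Serpinh1 (3553 ± 699), Serpinb1a (3102 ± 742), Serping1 (2125 ± 655) and Serpinb6a (1774 ± 137). Serpinb1a thus stood behind Serpinh1 alone in the knockdown group, and Serpinb7 was the lowest of all members there.

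**Figure D5:**
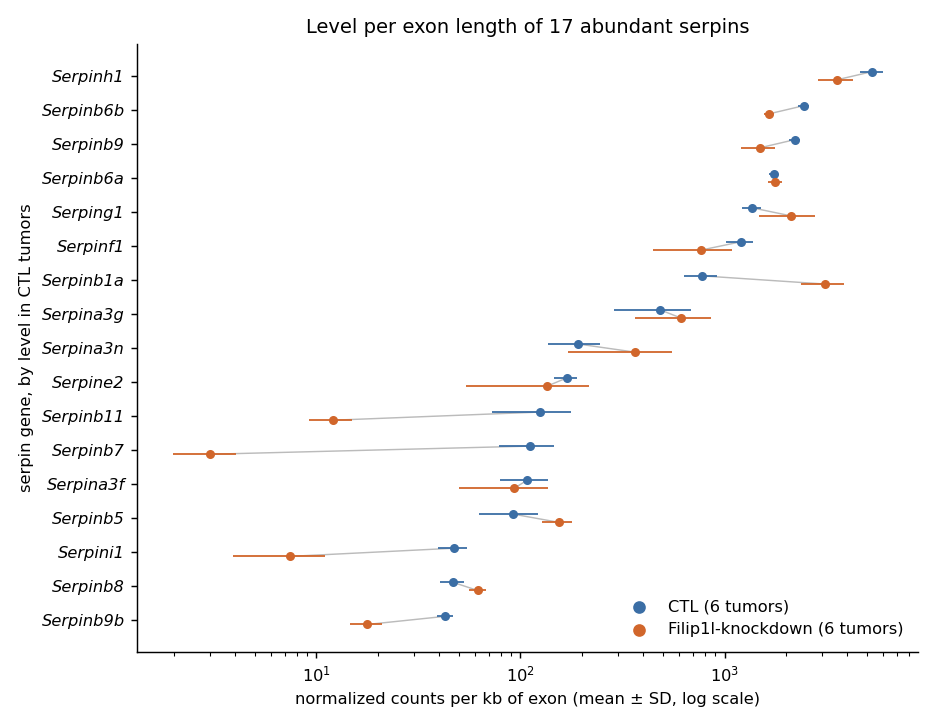
Normalized counts per kb of exon (x axis, log scale; mean and SD of 6 tumors) of 17 abundant serpins ordered by their CTL level (y axis), CTL in blue and Filip1l-knockdown in orange. Serpinh1 is at the top at 5279.6 in CTL tumors, and the long grey lines mark Serpinb7, Serpinb11, Serpini1 and Serpinb1a.

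The 4 called members and Serpinb7 were among the 18 serpins that averaged 100 normalized counts or more over all tumors, and 0 of the 15 lower members were called. In knockdown tumors alone Serpinb7, Serpinb11, Serpini1 and Serpinb9b had means of 5.90, 26.4, 54.2 and 59.6. These genes reached 100 only through the CTL group, so the split by level is in part built in and supports nothing. The summed counts of the family took 0.194% to 0.205% of all normalized counts in CTL tumors and 0.167% to 0.223% in knockdown tumors. The share of the whole family therefore overlapped between the groups.

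The proteases that serpins are known to inhibit, a list of 44 genes, had 34 listed members. Of these 5 were called higher: Mcpt4, a mast cell chymase (log2 fold change 2.61), Cela1, a pancreatic-type elastase (2.30), Hgfac, the activator of hepatocyte growth factor (1.65), Prss27 (1.27) and the membrane protease Tmprss4 (1.10). Their limma adjusted p were 2.21e-04, 1.53e-06, 7.51e-06, 0.00902 and 0.00279. The mast cell proteases Cma1 and Tpsb2 of this list were not called, at -0.06 (limma adjusted p = 0.926) and -0.68 (0.226). Called lower were Masp1, a protease of the lectin pathway of complement (-1.63, limma adjusted p = 7.44e-04), and the secreted Htra1 (-1.06, 7.09e-06). Of this list 20.6% were called, against 10.2% of all listed genes (6.2% higher and 3.97% lower), and its median log2 fold change was 0.05. Elane and Ctsg, the elastase and cathepsin G of neutrophils, were not among the listed genes.

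Cofactors and clearance receptors of serpins had 18 of 19 genes listed, 0 called higher and 1 lower, the matrix proteoglycan Vcan (log2 fold change -1.19, limma adjusted p = 7.25e-04), and a median of 0.07. Protease inhibitors of other families had 16 of 17 genes listed and a median of 0.53. Called higher were Wfdc18 (log2 fold change 2.67), Spint1 (1.63), Pi16 (1.34) and Pzp (1.24), with limma adjusted p of 0.0175, 4.08e-07, 0.00886 and 5.43e-04. Spint1, an inhibitor of membrane proteases in epithelia, had 742 ± 135 normalized counts in CTL and 2288 ± 343 in knockdown tumors. Called lower were Tfpi2 (-1.54), A2m (-1.22) and Itih2 (-1.22), with limma adjusted p of 8.98e-05, 0.00335 and 4.56e-06. As in the serpins, calls in both directions were found in this list. The called share was 43.75% here and 5.56% for the cofactors and receptors, against 10.2% of all listed genes.

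Filip1l, the targeted gene, was at 2311 ± 211 in the CTL group and 1924 ± 165 in the other (log2 fold change -0.26, SE 0.07, limma adjusted p = 0.00998). All 6 knockdown tumors were below the CTL median, and the groups overlapped. These are RNA values of bulk tumors. The paper reports less FILIP1L protein by immunoblot of the knockdown cells and by staining of the knockdown tumors. Depth was 17834745 to 29502069 reads on listed genes in CTL tumors and 25460564 to 32419578 in knockdown tumors. Skeletal muscle markers were also higher in the knockdown group (7 of 8 called, sums of 1970.3 to 10311 and 4463 to 81161). Of lung epithelial markers 6 of 9 were listed, Sftpa1, Scgb1a1 and Scgb3a2 were not, and 1 was called higher (Sftpb) and 1 lower (Foxj1). The summed level of the 6 was 1116 to 2849 in the CTL group and 1888 to 3669 in the knockdown group. Their median log2 fold change was 0.88, with 5 above 0 and 1 below. Within this list Nkx2-1 was low, from 0.947 to 37.3 in CTL and from 4.90 to 90.6 in knockdown tumors. Sftpc was at 0 in at least 1 tumor of each group. The other marker lists had 1 of 9 (macrophage), 0 of 7 (endothelium), 2 of 4 (adipocyte), 1 of 6 (mast cell) and 0 of 4 (platelet) called, all of them higher. By the adjusted p alone, 5 of the 7 endothelial markers were higher and 0 lower, against 21.1% and 20.7% of all genes. The median log2 fold change of these 7 was 0.47, with sums of 2695 to 3343 in CTL and 3292 to 5240 in knockdown tumors. Over all listed genes 6.2% were called higher and 3.97% lower.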

How the data were processed

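RNA of 12 subcutaneous tumors (6 CTL, 6 Filip1l-knockdown, each a separate biological replicate in the labels) was enriched with oligo(dT) and sequenced. The authors trimmed reads (Trimmomatic 0.36), aligned them (STAR 2.5.2b, mm10 in the submitters' processing notes), counted unique gene hits (featureCounts, Subread 1.5.2) and deposited counts divided by DESeq2 size factors, a normalized signal. Strandedness is not given in the sources used here. Genes counted only where uniquely hit lose reads shared by paralogs.

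Each value was a whole multiple of 1 step per tumor (within 0.02 of a whole number), so reads per gene were recovered. In 3 tumors (CTL 1 and 4, knockdown 1) the step lies within 1% of 1, where low values would look whole in any case. A count of 3 reads, the floor, equals 2.59 to 4.48 normalized counts. Floors cover counting error only. Positions come from GENCODE vM21, which held 15661 of 15687 identifiers, and promoters of 26 of 33 members from RefSeq. Clusters are members under 1 Mb apart.

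Groups were compared with limma 3.58.1 (R 4.3.3) with a trend on log2(value + 1), Benjamini-Hochberg adjusted over all genes, because the design assumed normalized values. Exact permutation tests were two-sided over all tumors (smallest p 0.00216). A filter at a mean of 5 removed 0 genes. Steps were tested on simulated data. Alternatives were pseudocounts, filters, rescaling, no trend, a replicate block, chromosome medians removed and each tumor left out. edgeR 4.0.16 and DESeq2 1.42.0 on recovered reads, and 3 tumors left out together, were added after seeing the data.

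Members, lists, motifs and the naming rule were chosen with earlier results of these data known. Named are the members (1 that is in the counts is not reported here), called members of each pathway list, the 3 nearest listed genes on each side of a cluster and Filip1l. The neighbours of Serpini1, single marker genes, genes inside a cluster and the targets Prtn3, Gzmb, Plat, C1ra, C1s1, Cma1 and Tpsb2 were named after their values were seen. Figures were drawn with matplotlib 3.10.9.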

Additional observations from a re-analysis of the deposited data

Results flagged for a closer look

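In 10 of the 66 groups of 6 tumors (33 serpins in 2 groups), the highest tumor stood apart from the others by more than Dixon's 95% limit. For normally distributed values chance alone does this in about 1 in 20 groups. Low and skewed counts need not keep that rate, and genes that are high in the same tumor are not independent. In CTL replicate 5 this held for 7 genes, with 366 normalized counts of Serpina3k, 215 of Serpinc1, 154 of Serpina1b, 118 of Serpina1c, 59.8 of Serpind1, 56.8 of Serpina1a and 40.3 of Serpina10. All 7 are serpins of blood plasma, and that tumor also had the highest hepatocyte marker sum of the CTL group (9088). In Filip1l-knockdown replicate 1 it held for Serpine2, at 2464, and for Serpina1e, at 351. In knockdown replicate 5 it held for Serpinb2, at 269.8, while Serpinb5, Serpinb7, Serpinb8 and Serpinb11 of the same cluster did not stand apart in that tumor.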

How the results depend on the processing

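Serpinb1a, Serpinb11, Serpinb9b and Serpini1 were called in all 24 alternatives. Among the 24, no filter repeats the main fit, because the filter at a mean of 5 removed 0 genes. The counts that follow also include Serpinb7, whose values chose the family and whose call supports nothing. Leaving out 1 tumor at a time gave 1 to 2 serpins called higher and 4 to 6 lower. The count called higher was 2 without Filip1l-knockdown replicate 1, 2 with CTL replicate 5 and knockdown replicates 1 and 2 left out together and 2 with edgeR on recovered reads (Serpina1e, 4.24, adjusted p = 0.0291). With those 3 tumors out Serpina7 (-1.29) and Serpind1 (-1.69) were also called lower. Pseudocounts of 0.5 and 8, a filter at a mean of 20 (which leaves 31 serpins), no filter, rescaling, limma without a trend, removal of chromosome medians and DESeq2 changed no call among the serpins. The replicate numbers do not pair the tumors (correlations between tumors of the same number from -0.269 to 0.0990). A replicate block gave the same 1 serpin called higher and 4 lower, and 1554 calls in all against 1596.

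Log2 fold changes that changed sign belonged to 8 serpins that were not called. Leaving out 1 tumor at a time gave -0.26 to 0.071 for Serpina3h, -0.57 to 1.59 for Serpina3k, -0.86 to 0.46 for Serpina6, -0.12 to 0.60 for Serpinb2, -0.52 to 1.03 for Serpinc1 and -1.08 to 0.17 for Serpinf2. With the 3 tumors out, Serpina3h had 0.071, Serpina3k -0.70 and Serpinc1 -0.41. Rescaling to the same total gave -0.014 for Serpinb6a, and removing chromosome medians gave -0.13 for Serpine3, whose chromosome 14 had a median shift of 0.39. Fewer tumors or another scale are the only changes in these fits, and the cause was not tested. Depth limits the knockdown value of Serpinb7 (36 reads in 6 tumors) and the low plasma serpins.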
